A study of Mus musculus with 6 samples.

Results

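Transcripts of 9 genes of B cells and plasma cells were followed in whole mammary tumours, out of 19937 genes measured. They were taken by name: Cd79a, Cd79b, Ms4a1 and Cr2 for B cells, and Jchain, Mzb1, Pou2af1, Tnfrsf17 and Derl3 for plasma cells. Each was read by 1 probe set (the group of probes that reports 1 transcript), and no other probe set listed any of them. The tumours came from 6 female FVBN mice with the MMTV-PyMT transgene, a viral oncogene (polyoma middle T) under a promoter active in mammary epithelium. Their age was 75 to 90 days at the assessment of tumour burden that preceded dosing. In the group labelled Tumor.DMSO, 3 mice received the vehicle. In the group labelled Tumor.TMP195, 3 mice received TMP195, an inhibitor of the class IIa histone deacetylases, at 50 mg/kg into the peritoneal cavity once a day. The sources used here give the length of dosing as 5 days in one place and as 2 weeks in another. Each mouse gave 1 tumour, and the 3 tumours within a group are therefore separate animals. RNA of the whole tumour was hybridised to Affymetrix arrays, and all values below are log2 intensities unless stated otherwise.

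B cells recognise antigen through a membrane antibody that signals by the paired chains encoded by Cd79a and Cd79b. Activated B cells can become plasma cells, which lose much of the B cell surface and expand the endoplasmic reticulum (ER) to secrete antibody. Mammary tissue is a site where plasma cells can supply antibody for transport across the epithelium into milk. Tumour-infiltrating B cells and plasma cells are found in some mammary tumours.

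All of these genes except Derl3 were dim. As a guide to how bright a probe set can be for a gene not known for transcription in tumours, the 1015 olfactory receptor genes had a median of 2.23 and a 95th percentile of 4.0. Cd79a, Ms4a1, Cr2, Jchain, Mzb1 and Tnfrsf17 lay below that 95th percentile, 6 of the 9 genes, and Cd79a lay below the median as well. Cd79b and Pou2af1 lay just above the 95th percentile, with means brighter than 98.9% and 97.7% of the olfactory receptor genes. Derl3 was brighter than all of them. Probe sets differ in how strongly they bind their target, so this is a guide to signal and not a detection test. The names B cell and plasma cell genes therefore stand here for what the genes are known for, since the intensities do not show that these cells were present in number.

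**Figure D1:**
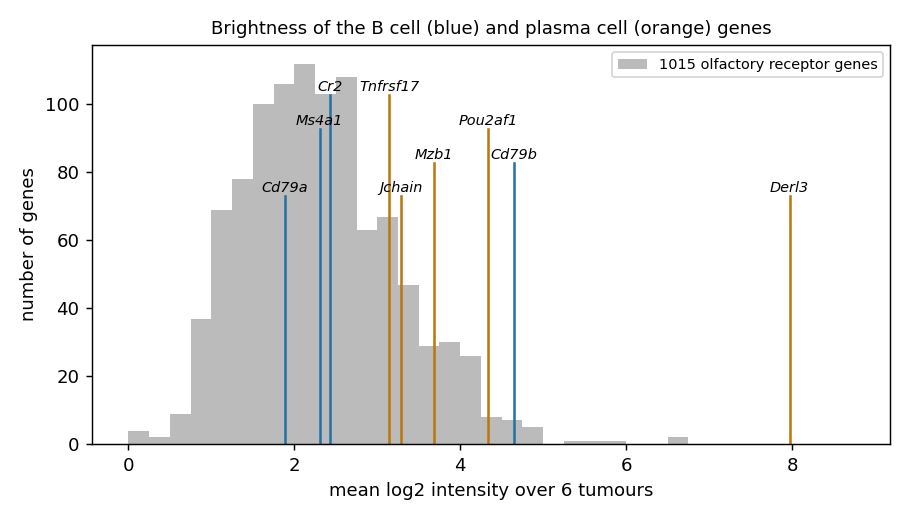
Mean log2 intensity over the 6 tumours (x axis) of the 4 B cell genes (blue lines) and the 5 plasma cell genes (orange lines), over a histogram of the 1015 olfactory receptor genes (grey, number of genes on the y axis). Line heights carry no value. Derl3 lies to the right of every olfactory receptor gene, and Cd79a, Ms4a1 and Cr2 lie in the middle of them.

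The tumours themselves differed more than the groups did. The first principal component of all genes held 43.5% of the variance and put TMP195 tumour 2 at -44.6 and the other tumours between -2.11 and 15.5. The second held 24.1% and put vehicle tumour 2 at 30.7. Differences of the 9 genes that change direction without one of these tumours are given both ways. In RNA of a whole tumour, fewer cells of a type and less RNA per cell cannot be told apart.

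The comparison of the dosing groups asks whether transcripts of B cells and plasma cells differed in tumours of mice given TMP195. None of the 9 genes passed an adjusted p of 0.05 in limma, fitted across all genes with Benjamini-Hochberg adjustment, where 0.0% of all genes passed. At an unadjusted p under 0.05, limma gave 0 of the 9 and 502 of all genes, or 2.52%. None of the 9 differed by 1.5-fold or more, a size that 1.28% of all genes reached. Differences, all given as log2 TMP195 minus vehicle, were above 0 for 6 genes and below 0 for 3, while 49.5% of all genes were above 0. The 95% intervals reached 0.21 to either side for the steadiest gene, Cd79b, and 0.87 for the most variable, Jchain. Differences below 1.16-fold and 1.83-fold, respectively, were thus within the error of 3 tumours against 3.

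**Figure D2:**
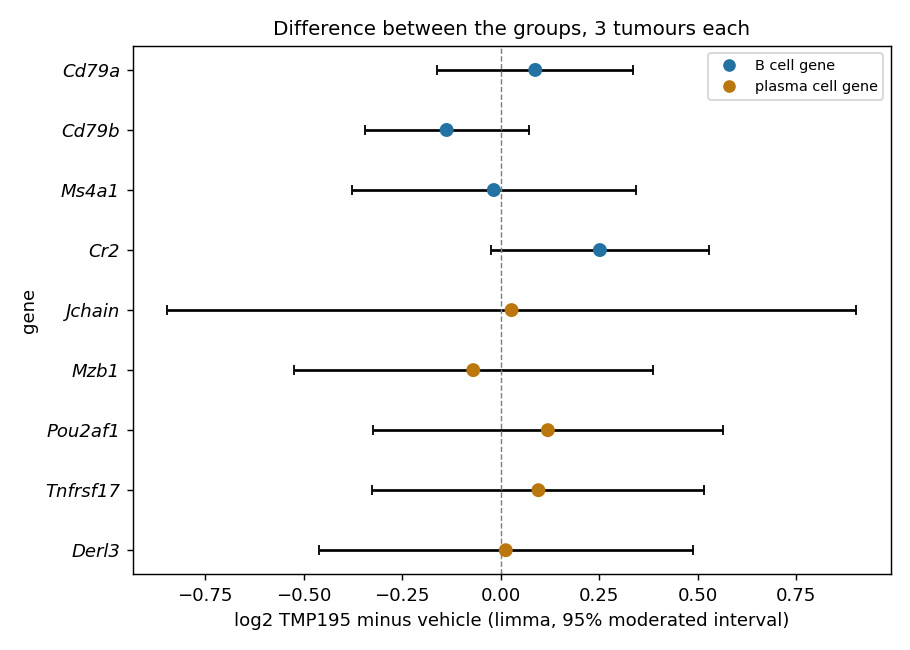
Log2 TMP195 minus vehicle (x axis) for each B cell gene (blue) and plasma cell gene (orange), with the 95% moderated interval of limma as bars and 3 tumours in each group. Every interval includes 0, and that of Jchain is the widest.

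Among the B cell genes, Cd79a encodes the antigen receptor's signalling chain Ig-alpha. It read 1.71, 1.94 and 1.87 in vehicle tumours 1 to 3, against 2.02, 1.81 and 1.96 in TMP195 tumours 1 to 3. The groups overlapped, and the difference was 0.09 with an interval of -0.16 to 0.34 (limma, adjusted p = 1.00). All 6 tumours lay within 1.24-fold of each other. Its intensity before the log ran from 3.27 to 4.05, and 5.11% of all genes were dimmer on average.

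Cd79b encodes Ig-beta, the partner of Ig-alpha. It read 4.80, 4.63 and 4.72 in the vehicle tumours, against 4.57, 4.61 and 4.56 in the TMP195 tumours. Every TMP195 tumour was below every vehicle tumour, by a narrow margin. Cd79b was the only 1 of the 9 genes whose groups did not overlap, whereas 6.68% of all genes did not overlap in either direction, and 3.21% had TMP195 lower. Vehicle tumours averaged 4.72 ± 0.084 (SD, n = 3) and TMP195 tumours 4.58 ± 0.030 (SD, n = 3). The difference of -0.14 ± 0.088 (SE) had an interval of -0.35 to 0.07 and did not pass the test (limma, adjusted p = 1.00). It stayed between -0.20 and -0.095 under every alternative that was run. Its partner chain Cd79a differed in the opposite direction, although neither difference passed.

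Ms4a1 encodes CD20, a surface protein of B cells that plasma cells lack. It read 2.48, 2.32 and 2.14 in the vehicle tumours, against 2.27, 2.55 and 2.07 in the TMP195 tumours. TMP195 tumour 2 was highest and TMP195 tumour 3 lowest, so the TMP195 group spanned the vehicle group. The difference was -0.02 (interval -0.38 to 0.34). It was 0.067 without vehicle tumour 1 and 0.096 without TMP195 tumour 3.

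Cr2 encodes complement receptor 2, which binds complement fragments on B cells and on follicular dendritic cells. It read 2.41, 2.23 and 2.25 in the vehicle tumours, against 2.38, 2.71 and 2.56 in the TMP195 tumours. The groups overlapped only through vehicle tumour 1 and TMP195 tumour 1. Cr2 had the smallest unadjusted p of the 9 genes, with a difference of 0.25 ± 0.12 (SE), an interval of -0.02 to 0.53 and a limma adjusted p = 1.00. The difference lay between 0.14 and 0.34 under every alternative run. Of the other follicular dendritic cell and lymph node genes on a separate list, 4 of 9 were above 0 and 0 passed, with a median of -0.059 that was 0.014 without vehicle tumour 2. Their summed intensity ran from 5573 to 6347 in the vehicle tumours and from 5519 to 6935 in the TMP195 tumours. Single genes differed widely in brightness: before the log, Clu read 1687 to 2000, Cxcl13 18.9 to 39.0 and Fcer2a 6.75 to 10.1. Of the 9, 3 were dimmer on average than the 95th percentile of the olfactory receptor genes. The sum does not show that follicular dendritic or lymph node cells were present. Whether such cells had a part in the Cr2 values was not tested.

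**Figure D3:**
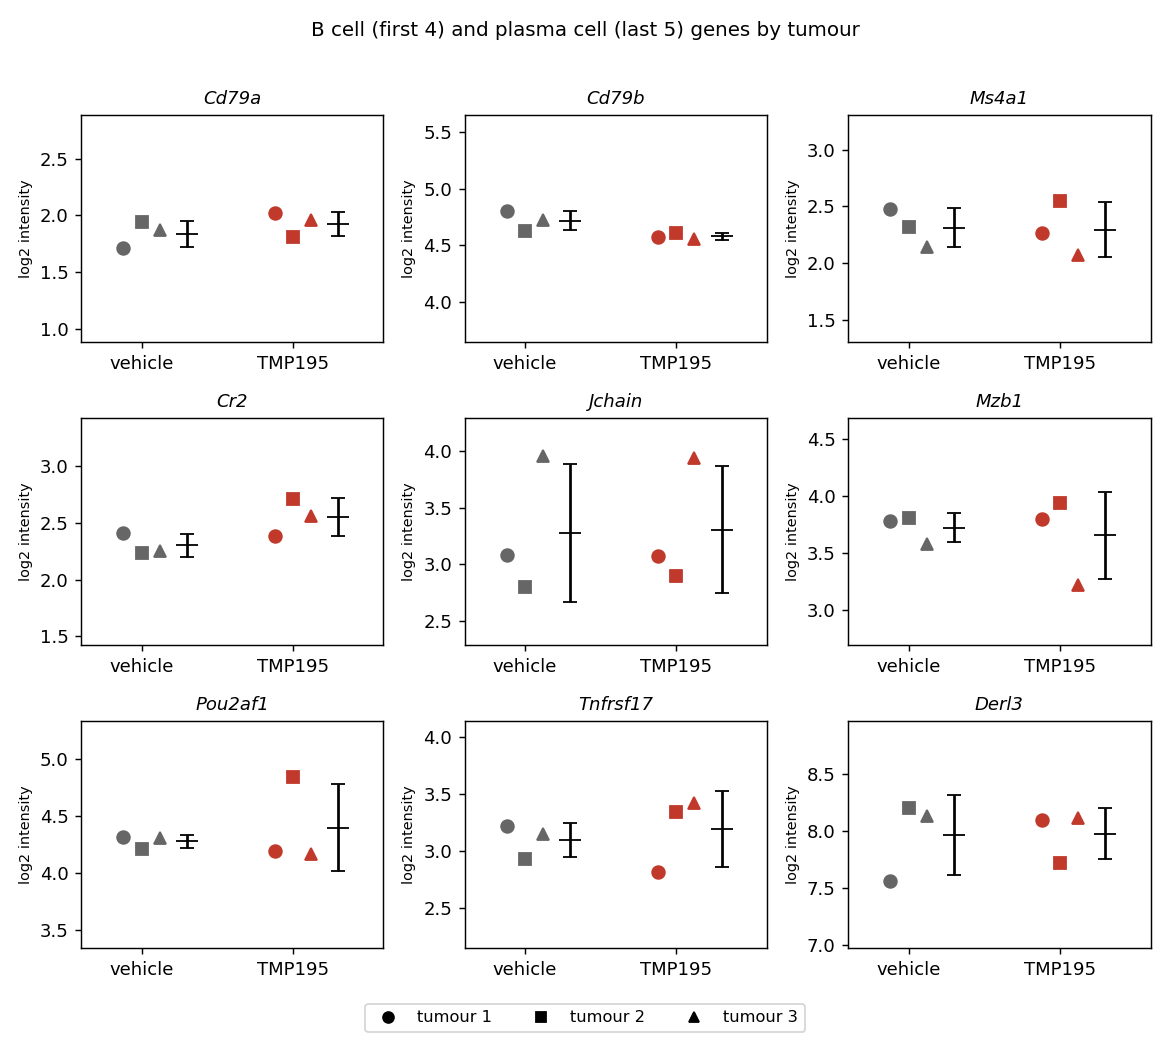
Log2 intensity (y axis) of the 9 genes in each tumour, with vehicle in grey and TMP195 in red, tumour numbers by symbol, and the group mean ± SD (n = 3) beside the points. Every panel spans 2 log2 units. The groups overlap in every panel except Cd79b, and Jchain is high in tumour 3 of both groups.

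Of the plasma cell genes, Jchain encodes the J chain, which joins antibody units into the polymers of IgM and IgA. It varied most, over a 2.23-fold range that put it at percentile 94.8 of all genes for its log2 range. It read 3.08, 2.80 and 3.95 in the vehicle tumours, against 3.07, 2.90 and 3.94 in the TMP195 tumours. Vehicle tumour 3 and TMP195 tumour 3 were thus high and the other 4 tumours low, and both groups held the same pattern. The vehicle mean was 3.28 ± 0.60 (SD, n = 3), and the TMP195 mean was 3.30 ± 0.56 (SD, n = 3). The difference of 0.03 had an interval of -0.85 to 0.90. Leaving out TMP195 tumour 3 turned it to -0.29, vehicle tumour 2 to -0.21 and vehicle tumour 1 to -0.071. Leaving out vehicle tumour 3 gave 0.37, and array weights gave -0.11.

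Immunoglobulin chains, which plasma cells make in bulk, were compared with Jchain next. On this array 29 probe sets name immunoglobulin genes and nothing else, 15 of them a single gene and 14 several genes of the family. Such probe sets can share sequence, so they are not independent readings. The 2 tumours with the highest values were the same as for Jchain, vehicle tumour 3 and TMP195 tumour 3, in 11 of the 29. The same held for 8 of the 17 that name only kappa light chain genes and for 2 of the 10 that name only heavy chain genes. Among all genes 3.48% had these 2 tumours highest. The order was found in 0 of 9 other plasma cell genes, 0 of 17 other B cell genes and 1 of 17 ER folding and secretion genes. This order was looked at because Jchain had shown it, so the counts describe these arrays and were not tested.

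The 4 kappa probe sets that name 4 to 8 genes showed it most plainly. They were singled out in these same arrays and were not tested. Vehicle tumour 3 read between 4.13 and 4.83 in them and was the highest tumour in all 4. TMP195 tumour 3 read between 3.97 and 4.53, and the other tumours ran from 3.37 to 4.29. Averaged over the 17 kappa probe sets, the deviation from each probe set's own mean was 0.04, -0.10 and 0.08 in vehicle tumours 1 to 3, against -0.18, -0.22 and 0.38 in TMP195 tumours 1 to 3. The average was therefore highest in TMP195 tumour 3, but vehicle tumour 3 exceeded vehicle tumour 1 by little.

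Between the groups, 13 of the 29 probe sets were above 0 and 16 below, with a median of -0.036. The highest mean among the 29 was 4.77. Of the 11 single immunoglobulin genes on the list, 6 were above 0 and 5 below, and 0 passed over all genes (limma). Of these 11, 8 were dimmer on average than the 95th percentile of the olfactory receptor genes. Ighg3, a heavy chain constant region of IgG, read 3.74, 3.36 and 3.43 in the vehicle tumours, against 3.15, 3.32 and 2.90 in the TMP195 tumours. Its groups did not overlap, and its difference was -0.39 ± 0.15 (SE, limma adjusted p = 1.00). Its unadjusted p was 0.0385, and 1.34% of all genes had an unadjusted p under 0.05 with TMP195 lower. The variable region genes Igkv19-93, Igkv4-91 and Igkv4-55 differed by 0.33, 0.28 and -0.18. The list median of 0.044 was -0.16 without TMP195 tumour 3, -0.0032 without vehicle tumour 2, and -0.044 without vehicle tumour 2 and TMP195 tumour 2 together. Igha, the heavy chain of IgA, and Ighm, that of IgM, were looked at after their values were seen, because J chain joins these classes. Igha read 4.34, 3.86 and 4.15 under vehicle and 3.84, 4.42 and 4.56 under TMP195, highest in TMP195 tumour 3. Ighm read between 4.31 and 4.68 under vehicle and between 4.27 and 4.58 under TMP195.

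Genes of salivary and lacrimal acini, glands in which plasma cells are common, were set beside Jchain as well. In 3 of the 13 on the list, the 2 highest tumours were those of Jchain. Their summed intensity ran from 3244 to 6223 in the vehicle tumours, highest in tumour 3, and from 1631 to 7066 in the TMP195 tumours, highest in tumour 1. Of the 13, 3 were dimmer on average than the 95th percentile of the olfactory receptor genes. The part of such cells in the Jchain values was not tested.

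**Figure D4:**
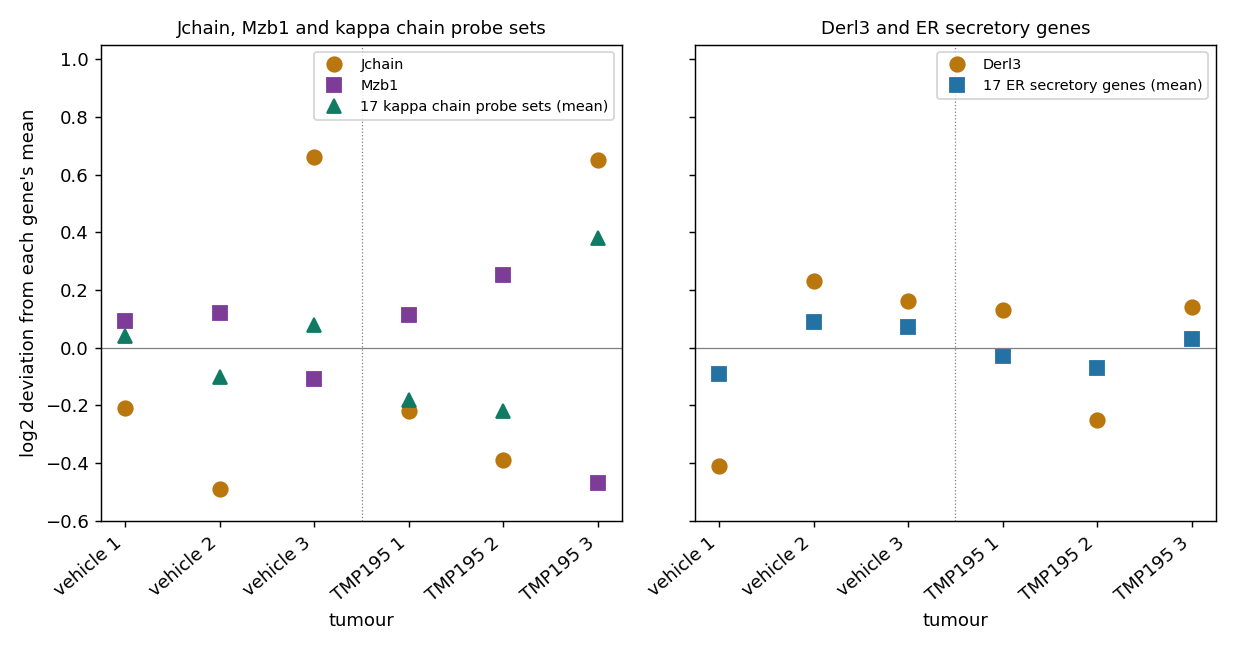
Log2 deviation from each gene's own mean over the 6 tumours (y axis) by tumour (x axis), with vehicle left and TMP195 right of the dotted line. Left, Jchain, Mzb1 and the average of 17 kappa chain probe sets. Right, Derl3 and the average of 17 ER secretory genes. Jchain is above its mean only in tumour 3 of each group, where Mzb1 is below its own, and Derl3 is lowest in vehicle tumour 1 and TMP195 tumour 2.

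Mzb1 encodes an ER protein that helps B lineage cells assemble and secrete antibody. It read 3.78, 3.81 and 3.58 in the vehicle tumours, against 3.80, 3.94 and 3.22 in the TMP195 tumours. The tumours with the most Jchain, vehicle tumour 3 and TMP195 tumour 3, were the lowest for Mzb1. The difference between the groups was -0.07 (interval -0.53 to 0.39), and 0.15 without TMP195 tumour 3.

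Tnfrsf17 encodes BCMA, the receptor through which plasma cells receive survival signals. It read 3.22, 2.93 and 3.15 in the vehicle tumours, against 2.81, 3.34 and 3.42 in the TMP195 tumours. TMP195 tumours 2 and 3 were above every vehicle tumour and TMP195 tumour 1 below them all. The difference was 0.10 (interval -0.33 to 0.52), -0.020 without TMP195 tumour 3 and -0.062 without vehicle tumour 2 and TMP195 tumour 2 together.

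Pou2af1 encodes a coactivator that acts with octamer-binding factors on B lineage genes, in B cells as well as plasma cells. It read 4.32, 4.21 and 4.31 in the vehicle tumours, against 4.19, 4.84 and 4.17 in the TMP195 tumours. TMP195 tumour 2 stood 0.53 above the next tumour, and the other 5 tumours lay close together. The difference was 0.12 (interval -0.33 to 0.57), -0.10 without TMP195 tumour 2, -0.14 without vehicle tumour 2 and TMP195 tumour 2 together, and -0.029 with array weights.

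Derl3 encodes a membrane protein that helps to remove misfolded proteins from the ER, and plasma cells and other secretory cells express it. With a mean brighter than 77.3% of genes, it was the single gene of the 9 with strong signal. It read 7.56, 8.20 and 8.13 in the vehicle tumours, against 8.10, 7.72 and 8.11 in the TMP195 tumours. Vehicle tumour 1 and TMP195 tumour 2 were low and the other 4 tumours lay within about 0.1 of each other. The difference was 0.01 (interval -0.46 to 0.49). Leaving out vehicle tumour 1 turned it to -0.19, TMP195 tumour 1 to -0.050 and TMP195 tumour 3 to -0.053, while leaving out TMP195 tumour 2 gave 0.14.

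The 2 lowest tumours of Derl3 were also the 2 lowest in 6 of 17 ER folding and secretion genes, in 4 of 9 other plasma cell genes and in 5 of 13 salivary genes. They were the 2 lowest in 2 of 9 mammary epithelial markers. The same held for 11.4% of all genes and 14.6% of genes above the 30th percentile of mean intensity. The order was taken from Derl3 in these same arrays, so the counts describe them and were not tested. Chosen after their values were seen, Bhlha15, a transcription factor of secretory cells, and Blnk, an adaptor of the B cell receptor, were low in TMP195 tumour 2. Bhlha15 is on both the list of other plasma cell genes and the salivary list, and it counts in each. It was 6.63 in TMP195 tumour 2 and between 8.02 and 8.78 in the others. Blnk was 6.14 there and between 7.31 and 7.66 elsewhere. Ccl28, a chemokine by which mammary epithelium attracts cells that make IgA, was also chosen after its values were seen and was 5.76 in vehicle tumour 1 and 5.31 in TMP195 tumour 2, and 7.18 to 7.52 in the others. The summed intensity of the mammary epithelial markers ran from 11960 to 12980 under vehicle and from 12050 to 12760 under TMP195. Which cells the Derl3 signal came from was not tested.

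Promoter sequences were searched for known motifs, and a link between motifs and the values by tumour was not tested. RefSeq windows of the 250 bases before the start (GRCm38.p6) were found for 6 of the 9 genes, and not for Cd79b, Ms4a1 and Mzb1. The motifs, on both strands, were the octamer ATGCAAAT, the ER stress response element (CCAAT, 9 bases of any kind, CCACG), its second form (ATTGG, 1 base, CCACG) and the unfolded protein response core TGACGTGG. The PU.1 site GAGGAAGT, the EBF site (TCCC, 2 bases, GGGA), the E-box CAGCTG and a MEF2 site were searched as well. The MEF2 site was 1 fixed run of letters, which the Tnfrsf17 window shows on the opposite strand. The 3 windows with a match are shown 5′ to 3′ on the gene's strand, which is the plus strand for all 3, with the matched letters in capitals.
Derl3, chr10:75893148-75893397, ER stress response element on the opposite strand: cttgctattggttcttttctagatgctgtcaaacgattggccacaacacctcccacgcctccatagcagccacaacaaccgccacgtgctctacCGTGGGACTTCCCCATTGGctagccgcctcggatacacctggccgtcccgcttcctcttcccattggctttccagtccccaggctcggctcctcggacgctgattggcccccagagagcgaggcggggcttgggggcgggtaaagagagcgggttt
Pou2af1, chr9:51213440-51213689, unfolded protein response core: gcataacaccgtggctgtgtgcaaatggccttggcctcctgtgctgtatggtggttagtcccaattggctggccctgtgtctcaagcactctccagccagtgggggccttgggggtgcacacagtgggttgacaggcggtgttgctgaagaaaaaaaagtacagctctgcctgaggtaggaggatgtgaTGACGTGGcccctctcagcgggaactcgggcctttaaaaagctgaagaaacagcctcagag
Tnfrsf17, chr16:11313559-11313808, MEF2 site: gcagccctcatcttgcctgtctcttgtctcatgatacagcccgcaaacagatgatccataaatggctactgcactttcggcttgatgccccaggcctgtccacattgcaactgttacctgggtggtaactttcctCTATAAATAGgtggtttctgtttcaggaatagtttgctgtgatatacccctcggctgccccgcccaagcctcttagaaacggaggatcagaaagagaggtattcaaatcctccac
The ER stress response element was in 0.113% of 32851 promoter windows, and in 4 of the 15 ER secretory genes with a window, namely Creld2, Hsp90b1, Hspa5 and Pdia6. The unfolded protein response core was in 0.563% and the MEF2 site in 0.14% of windows. The MEF2 site overlaps letters that also read as a TATA box. MEF2 factors are known partners of the class IIa histone deacetylases. None of the 6 windows held the other 5 motifs, which were in 1.6% (octamer), 0.0304% (second ER stress form), 2.44% (PU.1), 0.779% (EBF) and 13.0% (E-box) of all windows. A match is a match of letters only.

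The B cell and plasma cell genes were then set against each other tumour by tumour, as deviations of each gene from its own mean over the 6 tumours, since levels of different probe sets cannot be compared. The 4 B cell genes averaged 0.036, -0.035 and -0.071 in vehicle tumours 1 to 3, against -0.008, 0.107 and -0.029 in TMP195 tumours 1 to 3. They were highest in TMP195 tumour 2 and lowest in vehicle tumour 3. The 5 plasma cell genes averaged -0.098, -0.096 and 0.138 in the vehicle tumours, against -0.092, 0.062 and 0.086 in the TMP195 tumours, with vehicle tumour 3 highest. Vehicle tumour 3 was thus lowest for the one group of genes and highest for the other. Jchain made up almost all of the plasma cell average in vehicle tumour 3. In TMP195 tumour 3 its share was larger than the average itself. In both tumours Mzb1 and Pou2af1 were below their own means, and Tnfrsf17 and Derl3 were above theirs by less than Jchain. Jchain read 3.95 and 3.94 there and 2.80 to 3.08 elsewhere, and no average without it was taken. Without Pou2af1 the plasma cell average in TMP195 tumour 2 was -0.049. Without Derl3 the average was 0.140 in TMP195 tumour 2, against 0.131 in vehicle tumour 3.

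**Figure D5:**
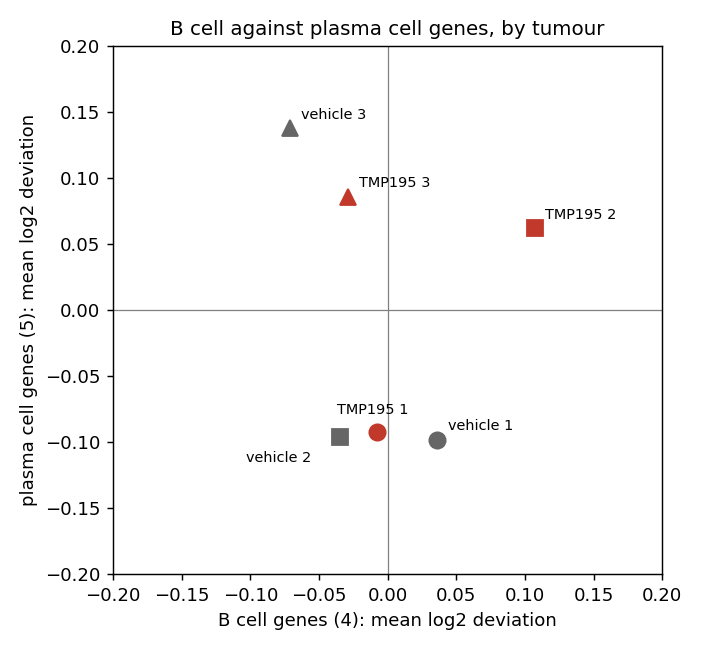
Mean log2 deviation of the 4 B cell genes (x axis) against that of the 5 plasma cell genes (y axis), 1 point per tumour, vehicle in grey and TMP195 in red. Only TMP195 tumour 2 is above 0 on both axes, and tumour 3 of each group is above 0 for the plasma cell genes alone. Jchain was highest in tumour 3 of each group and made up most of the plasma cell average there. Without Pou2af1, the plasma cell average of TMP195 tumour 2 is -0.049.

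The genes of each kind did not move as one. In no tumour were more than 2 of the 4 B cell genes, or more than 3 of the 5 plasma cell genes, above their own means. TMP195 tumour 2 had the highest value of 4 of the 9 genes, Ms4a1, Cr2, Mzb1 and Pou2af1. TMP195 tumour 3 had the lowest value of 4, Cd79b, Ms4a1, Mzb1 and Pou2af1, while it was highest for Tnfrsf17 and almost highest for Jchain.

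Plasma cell minus B cell deviation was -0.134, -0.061 and 0.208 in the vehicle tumours, against -0.084, -0.045 and 0.116 in the TMP195 tumours. The groups overlapped, and each had its highest value in tumour 3, the tumour where Jchain was highest in each group. The TMP195 mean was lower than the vehicle mean by very little, at -0.009, and ran from -0.078 to 0.093 as single tumours were left out. The median difference was 0.035 over the B cell genes, 0.028 over the plasma cell genes and -0.0014 over all genes. Leaving out vehicle tumour 3 gave a B cell median of -0.0011, leaving out TMP195 tumour 2 gave 0.00074 and leaving out TMP195 tumour 3 gave 0.085. For the plasma cell genes, leaving out vehicle tumour 1 gave -0.042, TMP195 tumour 3 gave -0.020 and TMP195 tumour 1 gave 0.14, and array weights gave -0.029. Counting Pou2af1 with the B cell genes gave medians of 0.088 and 0.020.

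Other genes of B cells and plasma cells, and markers of other cell types, gave no call either. Over all of these lists 149 further genes were measured, of which 59 were above 0 and 90 below, with 49.5% above 0 among all genes. None passed an adjusted p of 0.05 in limma, and 4 had an unadjusted p under 0.05, against 2.52% of all genes. The lower count included all 10 adipocyte and all 9 muscle markers, each list with single tumours far from the rest: adipocyte markers deviated by 1.64 on average in vehicle tumour 3 and by -1.65 in TMP195 tumour 2, and muscle markers by 2.74 in vehicle tumour 2. The muscle median of -0.94 was 0.20 without vehicle tumour 2. Macrophage markers were below 0 in 10 of 11, with a median of -0.12, and their summed intensity ran from 3888 to 4605 under vehicle and from 3660 to 4582 under TMP195. The part of these cells in the values of the 9 genes was not tested.

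Of 17 other B cell genes measured, 5 were above 0 and 12 below, with a median of -0.099 (-0.0071 without vehicle tumour 1). Fcer2a, the low-affinity IgE receptor, differed by 0.25 ± 0.16 (SE), and Vpreb3, a surrogate light chain relative, by 0.15. Fcrla, an Fc receptor-like protein of B cells, differed by -0.16, and the transcription factor gene Spib by -0.21, which was -0.046 without vehicle tumour 1. None of the groups of these 4 genes separated without overlap. Cd72, an inhibitory coreceptor picked after its values were seen, was 4.92 in TMP195 tumour 2 and between 3.70 and 4.20 in the others, the same high tumour as for Pou2af1. The 17 genes together deviated by only 0.04 on average there and were highest in vehicle tumour 1, at 0.10. Blnk, of the same list, was lowest in TMP195 tumour 2, at 6.14. T cell markers were highest in TMP195 tumour 2: the 12 measured deviated by 0.23 on average there and by -0.13 to 0.04 elsewhere. Their summed intensity was 296 in it, 212 to 251 under vehicle, and 215 and 235 in TMP195 tumours 1 and 3, and their part was not tested.

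Of 9 other plasma cell genes, 3 were above 0 and 6 below, with a median of -0.054 that was 0.054 without TMP195 tumour 2. Cd27, a receptor of memory B cells, plasma cells and T cells, differed by 0.17 ± 0.12 (SE), and by 0.067 without TMP195 tumour 1. Prdm1, the repressor that ends the B cell programme, differed by 0.08, and by -0.0044 without TMP195 tumour 1. Xbp1, the factor that expands the ER, differed by -0.19 and Sdc1, the surface proteoglycan syndecan-1, by 0.14. Both are also expressed by epithelium, and both turned without TMP195 tumour 2, to 0.054 for Xbp1 and -0.14 for Sdc1. Irf4, a transcription factor needed by plasma cells and named after its values were seen, read 4.87 in vehicle tumour 3, 4.28 in TMP195 tumour 1 and from 3.08 to 3.47 elsewhere. It shared with Jchain a high value in vehicle tumour 3 but not in TMP195 tumour 3.

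Of the 17 ER folding and secretion genes, 5 were above 0 and 12 below, with a median of -0.036 that was 0.0078 without vehicle tumour 2. Fkbp11, a prolyl isomerase of secretory cells, read 6.79, 7.08 and 7.04 under vehicle and 6.71, 6.53 and 6.81 under TMP195. Its difference of -0.28 ± 0.12 (SE) had an interval of -0.57 to 0.01 and did not pass (limma, adjusted p = 1.00). Sec11c, a signal peptidase subunit, differed by -0.17, and by 0.069 without TMP195 tumour 2. Derl1, a paralogue of Derl3, differed by -0.08, and the chaperone cofactor gene Sdf2l1 by -0.07, which was 0.017 without TMP195 tumour 1.

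Of 8 germinal centre genes, 4 were above 0 and 4 below. Bcl6, the repressor that defines germinal centre B cells and is also made by epithelium, differed by 0.30 ± 0.17 (SE), and Mybl1, a MYB family transcription factor, by 0.24. Gcsam, a signalling protein of germinal centre B cells, differed by -0.15 and Rgs13, a regulator of G protein signalling there, by 0.14. Without TMP195 tumour 2, Bcl6 differed by 0.14 and Gcsam by -0.014, and without TMP195 tumour 3 Rgs13 differed by 0.0089.

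Of 12 measured genes that attract or keep B cells and plasma cells, 9 were above 0 and 3 below, with a median of 0.10 that was 0.011 without TMP195 tumour 2. Cxcl13, the chemokine that draws B cells into follicles, read 4.94, 4.75 and 5.29 under vehicle and 4.70, 4.24 and 4.78 under TMP195, with a difference of -0.42 ± 0.19 (SE). Cxcr4, a receptor that holds plasma cells in their niche and is found on many cell types, differed by 0.55 ± 0.27 (SE) and read 8.04, 7.09 and 7.96 under vehicle and 8.11, 8.54 and 8.08 under TMP195. Its groups did not overlap, and vehicle tumour 2 was far below the others. Without that tumour the Cxcr4 difference was 0.25, and without it and TMP195 tumour 2 it was 0.097. Ltb, a cytokine that organises lymphoid tissue, differed by 0.31, and by 0.16 without TMP195 tumour 2. Ccr10, the receptor for Ccl28 on cells that make IgA, differed by 0.15, and its groups did not overlap either, at 4.50 to 4.69 under vehicle and 4.77 to 4.79 under TMP195. Of all genes, 3.47% separated in this direction. Among 6 receptors for antibody, 3 were above 0 and 3 below, and Fcgr3 and Fcgr4 differed by -0.12 and -0.21. The Fcgr4 difference was -0.011 without vehicle tumour 3.

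Lastly, the genes whose values over the 6 tumours were most like the B cell and plasma cell averages were sought among 1160 genes that were bright enough and varied by at least 1 log2 unit. Pearson's r is given as a measure of likeness only, with no test, and these arrays share their normalization. Nearest to the B cell average were Ptpre, a tyrosine phosphatase (r = 0.98), the kallikrein protease genes Klk8 and Klk10 (r = 0.98 and 0.97), Epb41l4a (r = 0.97) and Cep112 (r = 0.97). All 5 were highest in TMP195 tumour 2 and second highest in vehicle tumour 1. Klk10 read 9.73 and 8.49 in these and 4.97 to 6.01 elsewhere. After cyclic loess the values were 0.67 to 0.83 in these 5 genes. The B cell average itself spanned -0.071 to 0.107. Nearest to the plasma cell average were Bpifb1, a secreted protein of mucosal glands (r = 0.79), and Rgs1, a regulator of G protein signalling in lymphocytes (r = 0.78). Mme (r = 0.72), Lsamp (r = 0.69) and Mid1 (r = 0.69) followed. These 5 were less near in the main values, but after cyclic loess they ran from 0.55 (Mid1) to 0.87 (Bpifb1). Rgs1 was 5.87 in vehicle tumour 3 and 6.19 in TMP195 tumour 3, its 2 highest values, and from 4.28 to 5.41 elsewhere. Bpifb1 was highest in the same 2 tumours, at 5.76 and 4.84.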

How the data were processed

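One array per tumour was used, 3 tumours per group. Per the submitters' processing notes, the authors summarised the arrays by RMA with Affymetrix Power Tools. No versions are stated there. What the authors deposited is an intensity per probe set. It was taken as linear, since medians lay from 44.8 to 46.4 and no array's highest value was below 8137, and log2 was taken. RMA as usually run quantile normalizes arrays, so a shift of most genes one way would not be visible. The scale of the deposited values is not given in the labels. Of 27359 probe sets, 21784 named 1 gene, 1620 several and 3955 none. The probe set with the highest mean stood for a gene, which left 19937 genes.

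The fit used lmFit and eBayes of limma 3.58.1 (R 4.3.3) on log2 values, two-sided, without covariates, and adjusted by Benjamini-Hochberg over all genes. Intervals are 95% moderated intervals. The script was tested on simulated data. Python 3.11.15 with pandas 2.3.3 and matplotlib 3.10.9 made the summaries and plots. The number of arrays limits the precision.

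The members and gene lists were chosen with earlier results of these data known. Named genes are the members, up to 4 genes per related list by unadjusted p, and the 5 most like each average (above the 30th percentile of mean intensity, predicted genes left out). Any others are said to be chosen after their values were seen. Alternatives were cyclic loess, median centring, array weights, a robust trended prior, a 30th percentile filter, the replicate number as a block, every probe set, Pou2af1 among B cell genes and leaving out each tumour. Leaving out vehicle tumour 2 and TMP195 tumour 2 together, and likeness after median centring and cyclic loess, were added after seeing the data.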

Additional observations from a re-analysis of the deposited data

How the results depend on the processing

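No alternative gave a call for any of the 9 genes or the related lists. The smallest adjusted p of a member was 0.963 in limma. Over all genes, limma called 0 under every alternative, with 502 genes at an unadjusted p under 0.05, 936 with array weights and 243 of 13956 above the 30th percentile. With the replicate number as a block 0 genes passed and 397 had an unadjusted p under 0.05, and no call changed. The labels do not say that the numbers pair the mice, and deviations of same-numbered tumours correlated at -0.212, -0.063 and -0.097. Of 120 alternative values of the members' differences, 104 kept their direction and 16 turned. The replicate block, the robust trended prior, every probe set and the 30th percentile filter leave a member's difference as it is. Their values count among the 104 but could not turn. Cd79a, Cd79b and Cr2 kept their direction under every alternative. As single tumours were left out, Ms4a1 ran from -0.15 to 0.096, Jchain from -0.29 to 0.37, Mzb1 from -0.21 to 0.15, Pou2af1 from -0.10 to 0.24, Tnfrsf17 from -0.020 to 0.29 and Derl3 from -0.19 to 0.14. Other named genes that turned ran from -0.31 to 0.054 (Xbp1), -0.0044 to 0.14 (Prdm1), -0.14 to 0.31 (Sdc1), -0.29 to 0.069 (Sec11c), -0.13 to 0.017 (Sdf2l1) and -0.39 to 0.012 (Igkv4-55). Array weights turned Jchain to -0.11, Pou2af1 to -0.029 and Sdc1 to -0.060. Without vehicle tumour 2 and TMP195 tumour 2 together, the turned values were -0.0089 for Jchain, -0.14 for Pou2af1, -0.062 for Tnfrsf17, 0.12 for Xbp1, -0.15 for Sdc1, 0.11 for Sec11c and 0.011 for Derl1. The cause of these turns was not tested. The planned mean over a gene's probe sets was not run, since each member has 1, and the 30th percentile filter kept Cd79b, Pou2af1 and Derl3 of the 9. Low signal limits the other 6.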
